A study of Mus musculus with 8 samples.

Results

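The cytosolic ribosomal protein genes encode the proteins of the small and the large subunit of the ribosome that translates messenger RNA outside mitochondria. They were taken from the deposited table by name, as protein-coding rows whose symbol is Rpl or Rps with a number and at most a short suffix, together with Rpsa, Rplp0, Rplp1 and Rplp2. The rule found 84 genes among 35275 rows and used no measured value. Of these, 77 were canonical components, 46 of the large subunit and 31 of the small one, and 7 were paralogs (Rpl3l, Rpl7l1, Rpl10l, Rpl22l1, Rpl39l, Rps4l and Rps27l).

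RNA from lens fiber cells (FC) of C57BL/6 mice (C57BL/6J in the study's methods) was sequenced in 8 libraries. In 4 of them the FC came from mice exposed to cigarette smoke (CS) for several months in a whole-body chamber, into which their mothers had been moved late in pregnancy, and in the other 4 from age-matched untreated control (Ct) mice. Each library was a pool of FC from the eyes of 4 mice, which were dissected from the epithelium under a microscope. The study's methods give 2 male and 2 female replicates for each group, and the labels do not say which libraries these are. Both groups were of the same strain, and the labels name no difference between them besides the exposure. The depth was about 18100000 to 23300000 fragments a library, as estimated from the steps of the FPKM, and 75 of the 80 members tested below had at least 1000 fragments in every library.

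Every member of the ribosome is needed in 1 copy per particle, apart from the stalk proteins, and the members are known to be transcribed and translated in a coordinated way. Their messenger RNAs carry a 5′ terminal oligopyrimidine (TOP) tract, a run of C and T at the very start of the transcript through which Larp1 and the mTOR kinase control translation. Lens FC lose their nuclei and organelles as they mature, so their RNA comes from the younger cells near the surface and from what older cells have kept.

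The start regions of a few members are shown because the TOP tract is the sequence that these genes are known to share. RefSeq promoters (GRCm38.p6) were found by symbol for 63 of the 84 genes, with 75 start sites. Each stretch below holds 30 bases before the RefSeq start and 30 bases from it on, in the direction of transcription, and capitals mark runs of at least 6 C or T.
Rpl28 (chr7:4792935-4792994, plus strand): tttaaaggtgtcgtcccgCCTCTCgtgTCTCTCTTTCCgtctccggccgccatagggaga
Rps27 (chr3:90213619-90213678, minus strand): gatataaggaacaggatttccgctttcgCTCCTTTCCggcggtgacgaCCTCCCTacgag
Rplp2 (chr7:141447621-141447680, plus strand): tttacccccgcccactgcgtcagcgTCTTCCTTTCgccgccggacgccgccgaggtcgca
Rps6 (chr4:86857338-86857397, minus strand): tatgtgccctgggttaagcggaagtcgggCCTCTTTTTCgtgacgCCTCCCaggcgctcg
Rpl35 (chr2:39005102-39005161, minus strand): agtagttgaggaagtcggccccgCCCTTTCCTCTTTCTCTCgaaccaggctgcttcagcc
Rpl22l1 (chr3:28805478-28805537, plus strand): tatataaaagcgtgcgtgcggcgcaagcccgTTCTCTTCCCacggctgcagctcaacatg
Rps4x (chrX:102189362-102189421, minus strand): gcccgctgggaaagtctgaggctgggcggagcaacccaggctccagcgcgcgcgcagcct
Rpl10 (chrX:74270786-74270845, plus strand): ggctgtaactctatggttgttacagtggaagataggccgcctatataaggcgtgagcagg
Rpl24 (chr16:55966245-55966304, plus strand): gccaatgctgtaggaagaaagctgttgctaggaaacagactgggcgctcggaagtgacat
The first 6 hold a marked run at or next to the start, and it was longest in Rpl35. The last 3, which are taken up again below for their values, hold none in this window. Rpl18 and Rpl37, also taken up below and not shown here, do hold one, of 10 and 6 bases. Such a run stood within 30 bases of 72.0% of the 75 starts, against 49.6% of 32851 starts of all genes, and the median longest run was 7 bases against 5. Within the whole 300 bases and on either strand, the letters CCGGAAG, the core of a site for ETS factors such as GABP, were found at 36.0% of member starts and 8.86% of all starts. The letters AANATGGC, as read by Yy1, were found at 22.7% and 6.05%, and TATAAA at 9.33% and 13.6%. These shares describe letters in fixed windows only, and RefSeq starts need not be those used in the lens.

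Transcripts of the ribosomal protein genes were among the most abundant in lens FC. Levels are given as FPKM, fragments scaled to gene length and to library depth, so the order of genes depends on the lengths used. Estimated from the FPKM steps, these were 255 bases for Rps27 and 5130 for Rps15a, against 1043 and 6270 annotated exon bases. The 2 genes had similar fragments, 9498 to 12591 and 10375 to 13224 a library, but means of 2171 and 111 FPKM. The summed FPKM of the 84 genes was 72716, 71663, 69561 and 72139 in the 4 Ct libraries and 72596, 70124, 73362 and 76115 in the 4 CS libraries. This was 9.18% ± 0.17 (SD, n = 4) of the FPKM of all genes in Ct and 9.37% ± 0.30 (SD, n = 4) in CS, in libraries where crystallins alone took 63.9% to 65.9%. Of the 100 rows with the highest mean FPKM, 56 were members, and 28 members had a mean of 1000 FPKM or more. Another 47 members lay between 100 and 1000 FPKM and 9 were lower.

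**Figure D1:**
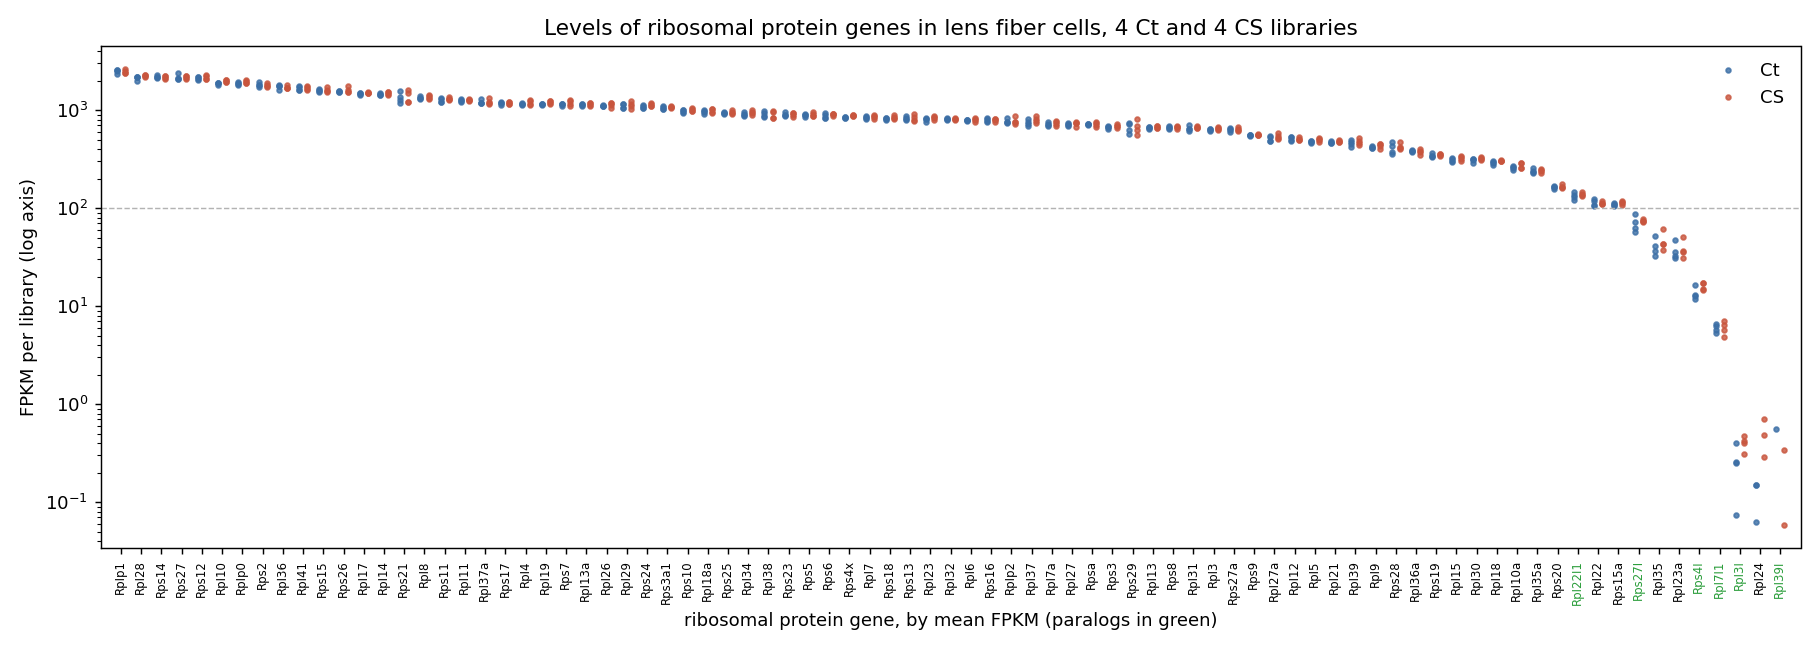
FPKM of each ribosomal protein gene in each library on a log axis, with genes ordered by their mean, Ct libraries in blue, CS libraries in red, and paralogs named in green. Values of 0 and Rpl10l, which is at 0 throughout, are not drawn, and the dashed line is at 100 FPKM. Of the 77 canonical genes, 74 form a plateau from 2489 FPKM (Rplp1) to 111 FPKM (Rps15a), with Rpl35, Rpl23a and Rpl24 far below it.

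Among the canonical genes, 71 of 77 lay within 4-fold of their median of 833.0 FPKM. The highest was Rplp1, an acidic protein of the stalk that recruits elongation factors to the large subunit, at 2571, 2349, 2559 and 2535 FPKM in Ct and 2376, 2378, 2493 and 2650 FPKM in CS. Its partner Rplp2 was at 771 ± 41 FPKM in Ct and 780 ± 65 FPKM in CS, and Rplp0, which anchors both to the ribosome, at 1865 ± 53 and 1954 ± 69.5 FPKM (SD, n = 4 each). By FPKM Rplp1 therefore stood above both its partners in each of the 8 libraries. The lengths used were 495 bases for Rplp1, 964 for Rplp2 and 1358 for Rplp0. After Rplp1 came Rpl28 with 2138 ± 91 FPKM in Ct and 2242 ± 52 FPKM in CS, Rps14 with 2194 ± 53 and 2175 ± 79 FPKM, Rps27 with 2168 ± 161 and 2174 ± 83 FPKM, and Rps12 with 2115 ± 75 and 2162 ± 108 FPKM (SD, n = 4 each). The SDs of these 4 genes overlap in Ct, so their order there is not resolved. Large-subunit genes without the stalk had a median of 772.6 FPKM and small-subunit genes of 900.7 FPKM.

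Members known for functions besides their place in the ribosome lay on the same plateau. Rpl5 and Rpl11, which bind 5S RNA and can inhibit Mdm2 when ribosome assembly is disturbed, were at 478 ± 11 and 1262 ± 32 FPKM in Ct and at 499 ± 20 and 1266 ± 19 FPKM in CS (SD, n = 4 each). Rps6, the substrate of S6 kinase, was at 838, 927, 831 and 889 FPKM in Ct and at 907, 879, 907 and 912 FPKM in CS. Rps19, the gene most often mutated in Diamond-Blackfan anaemia, was at 347 ± 15 FPKM in Ct and 350 ± 5.7 FPKM in CS. Rpsa, also known as a laminin receptor, was at 721 ± 9.9 and 723 ± 40 FPKM, and Rps27a, made as a fusion with ubiquitin, at 632 ± 19.5 and 641 ± 27 FPKM (SD, n = 4 each). None of these 6 passed limma at an unadjusted threshold of 0.05, where 4.83% of all genes tested did. Their limma p-values ran from 0.137 (Rpl5) to 0.962 (Rpsa).

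A few canonical names, 3 in all, were missing from the plateau. Rpl24, of the large subunit, was at 0.15, 0.15, 0.06 and 0 FPKM in Ct and 0.49, 0.70, 0.29 and 0 FPKM in CS, from 0 to 11 fragments a library. Rpl23a was at 36.5 ± 7.6 FPKM in Ct and 38.6 ± 8.7 FPKM in CS, and Rpl35 at 40.9 ± 8.6 and 46.3 ± 10.6 FPKM (SD, n = 4 each). These 3 genes were also those with the largest part of their annotated exon bases inside exons of another gene. Rpl35 (GRCm38 chr2:39001580-39005624) shared 66.2% of its exon bases with another gene, mostly with Wdr38 on the opposite strand. Rpl23a (chr11:78180932-78183584) shared 62.3%, mostly with Tlcd1, again on the opposite strand, and Rpl24 (chr16:55966275-55971435) 47.0% with Gm28037 on its own strand. The next gene in this order, Rpl13a, shared 35.4% and had 1148 FPKM, and every one of the 74 canonical genes with a share of 40% or less had at least 111 FPKM. The limit of 40% was set after these values were seen. The library kit named in the labels does not keep the strand of the RNA, and how fragments lying in several genes were counted is not given in the sources used here. The level of these 3 genes is therefore uncertain, and the part of the overlap in it was not tested. Of their 150-base windows, 73.2% for Rpl23a, 72.5% for Rpl24 and 67.0% for Rpl35 are also in transcripts of other genes, where the median member had 15.7%. The gene matched most often was Wdr38 for Rpl35 and Gm28037 for Rpl24, so these windows partly count the same overlap again. For Rpl23a it was Rpl23a-ps3. Rps6 with 82.4%, mostly with Rps6-ps4, and Rpl5 with 79.9%, mostly with Gm15500, lay on the plateau. The part of this shared sequence in their level was not tested either.

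**Figure D2:**
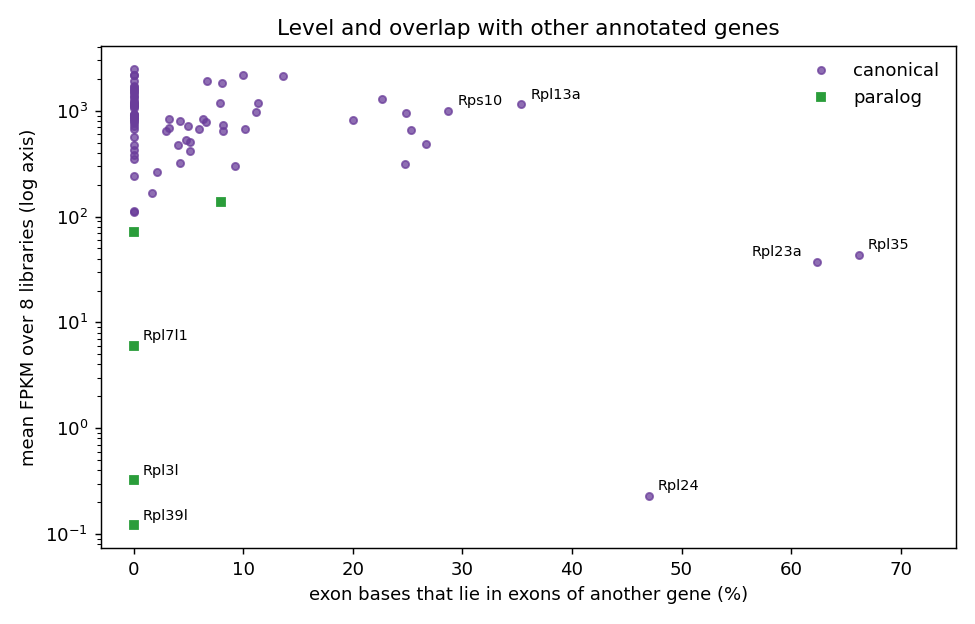
Mean FPKM over 8 libraries (log axis) against the percentage of a gene's annotated exon bases that lie in exons of another gene, for canonical members (circles) and paralogs (squares). Rpl24, Rpl23a and Rpl35 are the 3 canonical members beyond 40% and lie below all other canonical members, while Rpl13a at 35.4% has 1148 FPKM.

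By FPKM the paralogs were low beside their canonical genes, with Rpl22l1 as the exception. Rpl22l1, which can take the place of Rpl22, was at 146, 121, 137 and 130 FPKM in Ct and 136, 133, 146 and 139 FPKM in CS. By FPKM it was above Rpl22 in each of the 8 libraries. Its level was 118% ± 11 of that of Rpl22 in Ct and 122% ± 7.1 in CS (SD, n = 4 each). This order rests on the lengths used, 489 bases for Rpl22l1 and 2051 for Rpl22, against 1989 and 2911 annotated exon bases. Rpl22 had more fragments, 3900 to 5266 a library against 1150 to 1561. Rps27l, a paralog known to respond to p53, was at 3.22% ± 0.38 of Rps27 in Ct and 3.41% ± 0.20 in CS, and Rps4l at 1.61% ± 0.23 and 1.81% ± 0.16 of Rps4x. Rpl7l1 was at 0.71% ± 0.07 and 0.69% ± 0.10 of Rpl7. Rpl3l, known from striated muscle, had 2 to 15 fragments a library, Rpl39l 0 to 9, and Rpl10l, like Rpl39l known from the testis, was listed at 0 in all 8 libraries.

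The exposed and control mice were then compared gene by gene. In this comparison 80 of the 84 members reached a mean of 1 FPKM in Ct or in CS and were tested by limma, on the scale log2(FPKM + 0.1), among 9794 genes. Rpl24, Rpl3l, Rpl39l and Rpl10l did not reach it. No member passed at an adjusted p under 0.05 (limma with Benjamini-Hochberg adjustment), where 0.0102% of all genes tested did, and the smallest adjusted p of a member was 0.956. At an unadjusted p under 0.05, 2 of 80 passed, both higher in CS, and the share over all genes was 4.83%. The log2 fold changes of the tested members ran from -0.023 to 0.24, and 77 of 80 were within 0.1 of 0. Their median standard error was 0.041, so for most members a difference of a few percent was not detectable with these libraries.

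**Figure D3:**
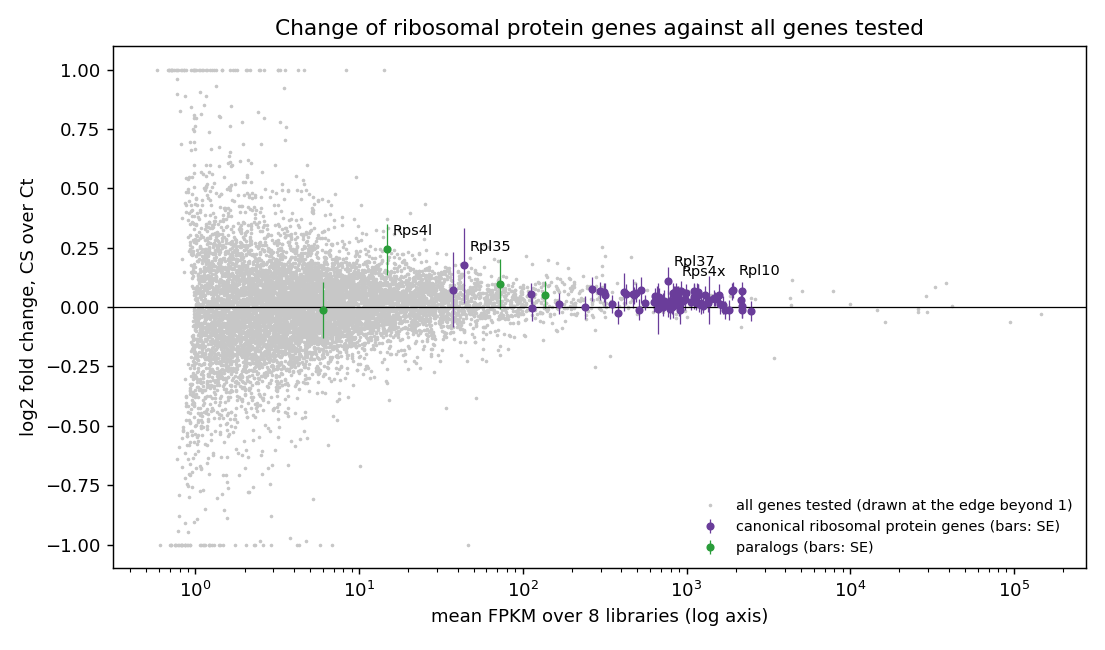
Log2 fold change, CS over Ct, against mean FPKM over 8 libraries (log axis) for all genes tested (grey), canonical members (purple) and paralogs (green), with bars of 1 SE for members. The members lie in a narrow band from -0.023 to 0.24, mostly just above 0.

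The 2 members with an unadjusted p under 0.05 were Rps4x and its paralog Rps4l. Rps4x, an X-linked gene of the small subunit, was at 825, 861, 824 and 849 FPKM in Ct and at 866, 873, 896 and 892 FPKM in CS. The groups did not overlap, though the nearest libraries differed by 861 against 866 FPKM, and the log2 fold change was 0.070 ± 0.031 (SE, limma adjusted p = 0.956). Rps4l was at 12.7, 16.6, 13.0 and 11.7 FPKM in Ct and at 15.0, 17.2, 17.2 and 14.5 FPKM in CS, on 200 to 374 fragments. Its groups overlapped, since Ct replicate 2 lay above CS replicates 1 and 4, and its log2 fold change was 0.24 ± 0.11 (SE, limma adjusted p = 0.956, exact permutation p = 0.0857). On the fragments recovered from the FPKM, limma-voom placed neither Rps4x nor Rps4l under 0.05, and 4 other members passed there without adjustment (Rpl10, Rpl28, Rpl37 and Rplp0, each higher in CS), against 4.95% of all genes.

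For 3 of the 80 tested members the libraries of the groups did not overlap, where 3.08% of all genes tested showed this. Besides Rps4x these were Rpl10 and Rpl18, both of the large subunit. Rpl10, an X-linked gene whose product joins the large subunit late in its maturation, was at 1907, 1887, 1788 and 1915 FPKM in Ct and at 1919, 1929, 2013 and 2027 FPKM in CS. Its log2 fold change was 0.073 ± 0.034 (SE, limma adjusted p = 0.956). Rpl18 was at 290, 300, 276 and 298 FPKM in Ct and at 304, 302, 307 and 305 FPKM in CS, with a log2 fold change of 0.068 ± 0.037 (SE, limma adjusted p = 0.956). For each of the 3 genes the exact permutation test over libraries gave p = 0.0286, two-sided, which is the smallest that 4 against 4 libraries allow and is not adjusted for the number of genes.

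The next smallest p-values among members higher in CS belonged to Rpl37 and Rpl28. Rpl37 had a log2 fold change of 0.11 ± 0.058 (SE, exact permutation p = 0.2), and 2 of its 4 CS libraries lay above the highest Ct library. Rpl28 had 0.069 ± 0.036 (SE, exact permutation p = 0.114), with 3 of 4 CS libraries above the highest Ct library. In the other direction the smallest p-values belonged to Rpl36a (log2 fold change -0.023), Rplp1 (-0.017), Rps14 (-0.013), Rpl36 (-0.012) and Rps2 (-0.012), and the unadjusted limma p-values of these 5 were between 0.636 and 0.774. Leaving out 1 library moved the number of members with an unadjusted p under 0.05 between 0 and 8. It was 8 of 80 without CS replicate 2, against 5.15% of all genes tested. It was 0 without Ct replicate 3 (4.28% of all genes) or CS replicate 3 (5.16%), and 1 without Ct replicate 1 (5.35%), Ct replicate 4 (4.88%) or CS replicate 4 (4.63%). It was 3 without Ct replicate 2 (5.08%) or CS replicate 1 (4.89%). Without CS replicate 2 the groups of 12 of 80 members did not overlap, against 6.2% of all genes, and without Ct replicate 2 (6.14%) or Ct replicate 4 (5.73%) those of 5 members.

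As a group the members lay slightly above 0. The log2 fold change was above 0 for 68 of 80 tested members (85.0%), against 51.2% of all genes tested, and its median was 0.032 against 0.0043 over all genes. By subunit, 36 of 42 large-subunit genes and 27 of 31 small-subunit genes were above 0, as were 2 of 3 stalk genes and 3 of 4 paralogs. Abundant genes as such leaned the same way, as 182 of 264 other genes at 100 FPKM or more (68.9%) were above 0, with a median of 0.024. The split around 0 depended on scaling. When libraries were brought to the same summed FPKM without crystallins, 48 of 80 members were above 0 (against 43.7% of all genes), and with quantile normalisation 46 of 80 were (against 49.2%), with medians of 0.010 and 0.0045. The first of these scalings multiplies all genes of a library by the same factor, the sum being 1.016 times as high in CS. It therefore moves members and all genes alike and leaves the lean of the members relative to all genes as it was. The share of the members in the FPKM of genes other than crystallins was 26.5% ± 0.28 in Ct and 26.6% ± 0.68 in CS (SD, n = 4 each). A shift of the whole group by this amount lies within the spread between libraries, whose medians had an SD of 0.039 within groups.

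Single libraries carried this lean unevenly. The median deviation of the 80 members from their own mean over 8 libraries was -0.0058, -0.011, -0.063 and -0.00077 in Ct replicates 1 to 4 and 0.0069, -0.041, 0.035 and 0.070 in CS replicates 1 to 4, on the log2 scale. In CS replicate 4, 74 of 80 members were above their own mean, while in Ct replicate 3 it was 9 and in CS replicate 2 it was 8. Of the other genes at 100 FPKM or more, 62.9% were above their own mean in CS replicate 4, 31.8% in Ct replicate 3 and 54.5% in CS replicate 2. Other abundant genes thus leaned the same way as the members in CS replicate 4 and Ct replicate 3 but not in CS replicate 2. The CS group held both the highest library and the second lowest. The median log2 fold change was 0.016 without CS replicate 4, 0.019 without Ct replicate 3 and 0.055 without CS replicate 2.

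**Figure D4:**
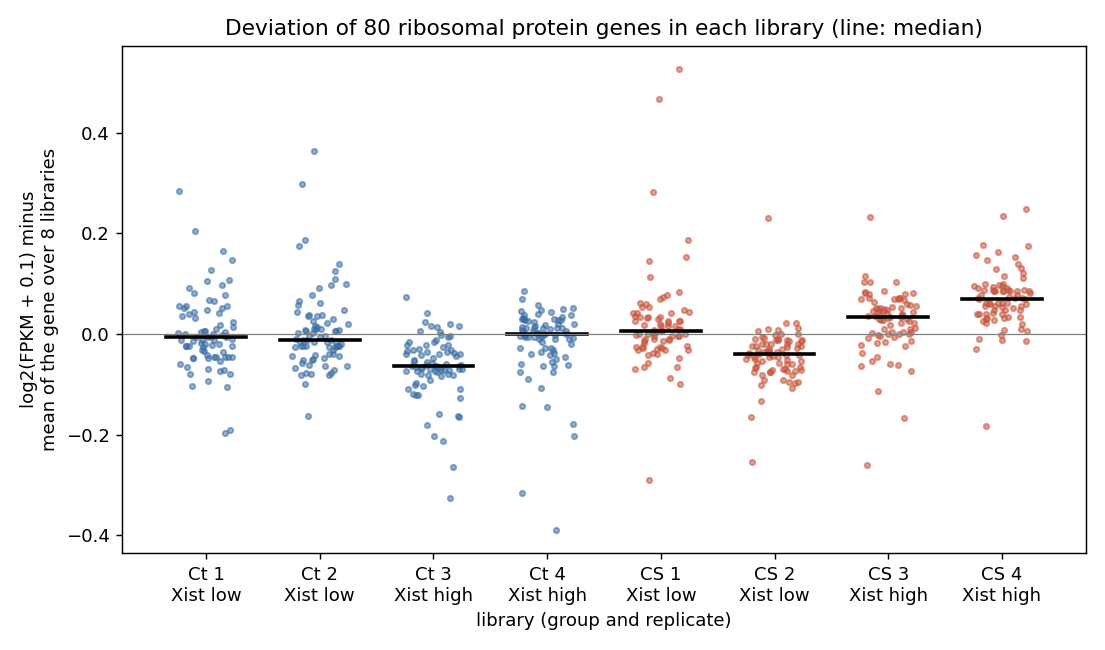
Deviation of log2(FPKM + 0.1) of each of the 80 tested members from the mean of that gene over 8 libraries, by library, with Ct in blue, CS in red and the median as a black line. Ct replicate 3 (median -0.063) and CS replicate 2 (-0.041) lie low and CS replicate 4 (0.070) and CS replicate 3 (0.035) high.

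Replicates 1 and 2 of both groups had at most 0.011 FPKM of Xist, the RNA that silences an X chromosome, and replicates 3 and 4 at least 41.1 FPKM. Each group thus held 2 libraries of either kind, as many as the male and female replicates that the methods give. Among the libraries with low Xist the median log2 fold change of the members was -0.0076 and 34 of 80 were above 0, where 46.3% of all genes tested and 53.8% of the other genes at 100 FPKM or more were. Among those with high Xist it was 0.085 and 76 of 80 were above 0, where 55.4% of all genes and 74.2% of the other genes at 100 FPKM or more were. At an unadjusted p under 0.05 there were 0 members among the libraries with low Xist, against 5.02% of all genes, and 9 among those with high Xist, against 5.27%. In a limma fit with a term for the difference of the 2 effects, 7 of 80 members had an unadjusted p under 0.05 against 5.57% of all genes, and the difference was above 0 for 77 of 80 members against 56.5% of all genes. No member passed after adjustment (smallest adjusted p = 0.853), and each effect rests on 2 libraries a side.

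Markers of other cells also differed between libraries. The 8 markers of lens epithelium summed to 120 FPKM in Ct replicate 3 and to between 48.1 and 79.3 FPKM in the other 7 libraries, with Foxe3 at 64.0 FPKM against 17.5 to 34.8 FPKM. The 7 pigment epithelium markers, of which Best1 was at 0 throughout, summed to 27.0 FPKM in CS replicate 3 and to at most 6.16 FPKM elsewhere. The 8 rod markers summed to 10.4 to 26.9 FPKM in Ct and 30.5 to 84.6 FPKM in CS, and the 5 blood markers to 22.8 FPKM in CS replicate 4 and at most 4.23 FPKM elsewhere. The 5 immune markers summed to under 1 FPKM in every library, and the 10 fiber markers to 287522 to 302896 FPKM. In CS replicate 2, where the members lay low, the epithelial, rod, pigment epithelium and blood sums were 67.8, 53.2, 3.62 and 2.54 FPKM. The part of these cells in the level of the ribosomal protein genes was not tested, and in bulk RNA a different share of cells and a different amount of RNA per cell cannot be told apart.

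Members differed in how much they varied between libraries of the same group. The median SD of log2 values within groups was 0.058 for tested members, 0.069 for other genes at 100 FPKM or more and 0.17 for all genes tested. The largest was that of Rpl35, at 41.5, 52.7, 37.0 and 32.7 FPKM in Ct and 61.8, 43.2, 42.7 and 37.7 FPKM in CS. Rpl23a, the other gene that shares most of its exon bases with an opposite-strand gene, was at 32.3, 47.5, 30.7 and 35.5 FPKM in Ct and 51.1, 30.9, 35.5 and 36.6 FPKM in CS. Both were highest in Ct replicate 2 and CS replicate 1.

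Next came Rps29 and Rps21, abundant members of the small subunit. Rps29 was at 746, 725, 633 and 578 FPKM in Ct and at 809, 623, 555 and 693 FPKM in CS, on 4821 to 7874 fragments. Rps21 was at 1562, 1361, 1196 and 1275 FPKM in Ct and at 1500, 1210, 1207 and 1611 FPKM in CS, on 11099 to 16763 fragments. The groups overlapped for both genes (exact permutation p = 0.971 for Rps29 and 0.857 for Rps21). The lengths behind their FPKM were 461 and 481 bases, and the 8 canonical genes with under 500 bases had a median SD of 0.078 against 0.054 for the other 68. The steadiest tested gene named here was Rps4x, with an SD of 0.028.

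**Figure D5:**
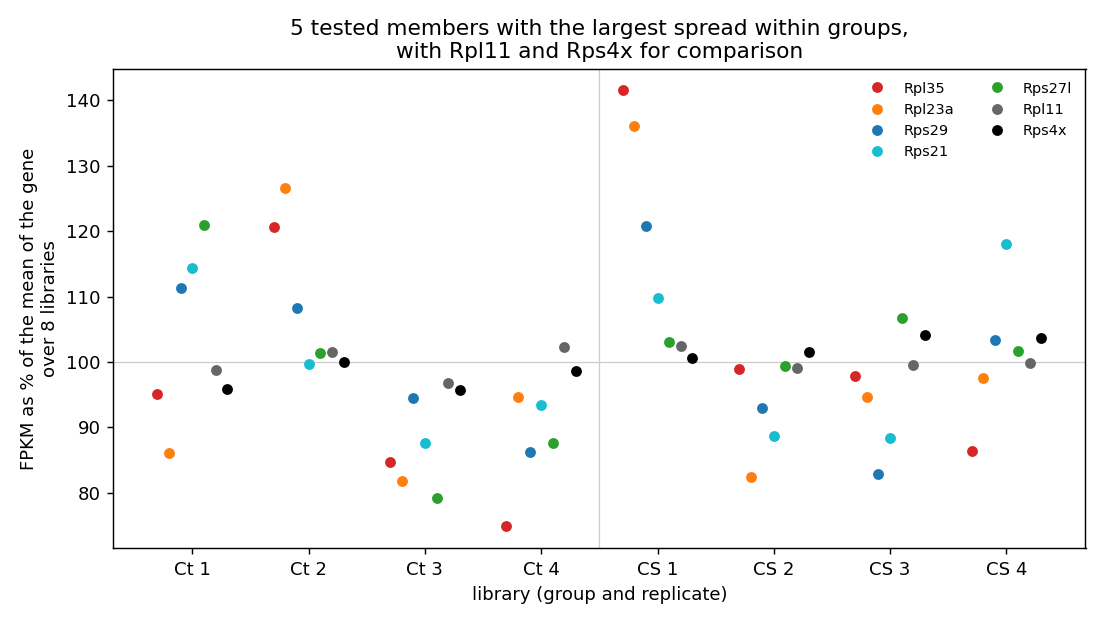
FPKM of the 5 tested members with the largest SD within groups, and of Rpl11 and Rps4x, as a percentage of the gene's mean over 8 libraries, by library. Rpl35 and Rpl23a reach their highest values in CS replicate 1 and Ct replicate 2, while Rpl11 and Rps4x stay close to 100%.

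Other genes of translation were described from lists in the same fit. Fau, a small-subunit protein gene that the name rule misses, was at 652 ± 17 FPKM in Ct and 666 ± 19 FPKM in CS (SD, n = 4 each). Its log2 fold change was 0.031 ± 0.035 (SE, limma adjusted p = 0.985). Of 10 tested elongation factors and partners 8 were above 0, against 51.2% of all genes tested, with a median of 0.019. None passed at an unadjusted p under 0.05, against 4.83% of all genes. Eef1a1, which brings aminoacyl-tRNA to the ribosome, was at 4310 ± 90 and 4334 ± 167 FPKM, and Eef2, which moves the ribosome along, at 1321 ± 62 and 1338 ± 10 FPKM (SD, n = 4 each).

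Of 38 tested ribosome biogenesis genes, 20 were above 0, against 51.2% of all genes tested, and the median was 0.0051. The groups of 1 gene did not overlap, against 3.08% of all genes. At an unadjusted p under 0.05, 2 genes passed, against 4.83%. Utp14a, of the complex that processes the small-subunit RNA, was at 5.18, 5.80, 5.63 and 5.45 FPKM in Ct and 7.24, 6.67, 5.91 and 7.32 FPKM in CS, without overlap (log2 fold change 0.29 ± 0.093 SE, limma adjusted p = 0.956, exact permutation p = 0.0286). Heatr3, which serves the import of Rpl5, was at 3.25, 2.57, 3.36 and 2.65 FPKM in Ct and 1.75, 2.85, 2.41 and 2.15 FPKM in CS (log2 fold change -0.37 ± 0.16 SE, limma adjusted p = 0.956, exact permutation p = 0.114). Of 14 RNA polymerase I genes 7 were above 0, against 51.2% of all genes tested, and the median was 0.027. The groups of 1 gene did not overlap, against 3.08% of all genes, and 1 gene passed, against 4.83%. This was Polr1b, the second largest subunit, at 1.56, 1.61, 1.81 and 1.88 FPKM in Ct and 1.39, 1.20, 1.02 and 1.25 FPKM in CS, without overlap (log2 fold change -0.47 ± 0.17 SE, limma adjusted p = 0.956, exact permutation p = 0.0286).

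The 15 genes that control TOP messenger RNAs, among them Larp1, Mtor and Rps6kb1, had a median of -0.0069. Of them 6 were above 0, against 51.2% of all genes tested, and none had an unadjusted p under 0.05, against 4.83%. Of 76 tested mitochondrial ribosomal protein genes, 44 were above 0, against 51.2% of all genes tested, and the median was 0.018. At an unadjusted p under 0.05, 1 passed, against 4.83%. This was Mrpl12 of the mitochondrial large subunit, at 5.81, 7.04, 5.36 and 5.75 FPKM in Ct and 5.11, 4.87, 5.33 and 4.60 FPKM in CS (log2 fold change -0.26 ± 0.10 SE, limma adjusted p = 0.956, exact permutation p = 0.0286). Over all lists examined, 4 of 157 tested genes had an unadjusted p under 0.05, below the 4.83% of all genes tested, and none passed after adjustment. The medians of these lists depended on the scaling. Scaled to the sum without crystallins, that of the elongation factors was -0.0034, that of the biogenesis genes -0.017 and that of the mitochondrial genes -0.0037, and with quantile normalisation that of the elongation factors was -0.0076. The scaling without crystallins moves all genes alike, and 43.7% of all genes tested were above 0 with it, against 51.2% before. The medians passed below 0 there by a shift that all genes shared. Among libraries with low Xist the medians of the elongation factors, the biogenesis, the mitochondrial and the RNA polymerase I genes were below 0 (-0.014, -0.019, -0.036 and -0.058). That of all genes tested was -0.013 there. Among libraries with high Xist the same medians were 0.045, 0.025, 0.027 and 0.099, and that of all genes tested was 0.026.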

How the data were processed

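RNA of lens FC was sequenced as 4 CS and 4 Ct libraries. The authors aligned reads with STAR 2.5 to GRCm38, counted them with HTSeq 0.6.1 and deposited FPKM per gene and library, which were used here. The deposited group means, log2 fold changes and p-values (DESeq2) were not used. The annotation release is not given in the sources used here. Groups and replicate numbers came from the sample titles.

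Every gene that averaged 1 FPKM or more in Ct or in CS entered limma 3.58.1 on the scale log2(FPKM + 0.1) (R 4.3.3, eBayes with trend, two-sided, Benjamini-Hochberg over 9794 genes). Fold changes on this scale understate those of low genes. Exact permutation tests, sums and figures used Python 3.11.15, numpy 2.4.6, pandas 2.3.3, scipy 1.17.1 and matplotlib 3.10.9. Members and lists were chosen with earlier results of these data known. Named members are the 6 highest and 6 lowest, those with p under 0.05 or without overlap, the 5 smallest p in each direction, the 5 largest SDs, the paralogs and 10 with known separate roles. Of the lists, genes with p under 0.05 are named, and Fau, Eef1a1 and Eef2 were added after their values were seen.

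FPKM steps gave whole fragments for 99.8% of tested genes, within 0.02 of a whole number, and relative depths from 0.910 to 1.17. The depth of about 18100000 to 23300000 fragments a library is an estimate from annotated gene lengths. Gene positions and overlaps are from GENCODE M21 on GRCm38. On simulated data of the same 9794 genes, 82.0% of 100 genes changed by 1 on the log2 scale, 38.0% of 100 changed by 0.5 and 0.0417% of 9594 unchanged genes were called. No 2 libraries agreed within counting error (chi-square of at least 5.5 per gene). Same-numbered libraries had correlations of their deviations from 0.012 to 0.16, so numbers were not taken as pairs. 1 gene is not reported here.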

Additional observations from a re-analysis of the deposited data

Results flagged for a closer look

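Within the named members and their sum, 60 groups of 4 libraries were looked at for a library far from the others by Dixon's criterion, of which chance alone flags about 3, and 5 were found. Rpl28 was at 2003 FPKM in Ct replicate 3 against 2173 to 2200 FPKM in the other Ct libraries. Rplp1 was at 2349 FPKM in Ct replicate 2 against 2535 to 2571 FPKM. Rplp2 was at 832 FPKM in Ct replicate 1 against 747 to 755 FPKM. Rpl36 was at 1791 FPKM in CS replicate 4 against 1686 to 1703 FPKM in the other CS libraries. Rps6 was at 879 FPKM in CS replicate 2 against 907 to 912 FPKM. Of these 5, 3 fall in the libraries whose members lay low or high together.

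For Rps27l the estimated effect of exposure was higher in libraries with high Xist than in those with low Xist. The log2 fold change was 0.32 with high Xist and -0.13 with low Xist, a difference of 0.45 (unadjusted p of 0.0063 for the limma interaction term), and no member passed adjustment over all genes. Each effect rests on 2 libraries a side. The difference was above 0 for 77 of 80 members, against 56.5% of all genes tested, so this direction was not particular to Rps27l.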

How the results depend on the processing

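No alternative gave a member an adjusted p under 0.05. The number of members with an unadjusted p under 0.05, which was 2, was 1 with no minimum FPKM (4.10% of all genes), with a minimum of 5 FPKM (4.69%), with median centring (4.84%) and with a replicate block (5.33%), 0 when scaled to the sum without crystallins (4.97%) and in eBayes without trend (5.08%), and 4 with limma-voom (4.95%). It was 0 within libraries with low Xist (5.02% of all genes) and 9 within those with high Xist (5.27%), and 0 to 8 with 1 library left out (4.28% to 5.35%). With the replicate block Rps4x no longer had an unadjusted p under 0.05, and no other named member changed its call. The 6 of 8 libraries that correlated best with their own number are a hint from the data, not the design. Members without overlap were 1 when scaled to the sum without crystallins (2.84% of all genes) and 3 to 12 with 1 library left out (5.43% to 6.20%). Members above 0 were 34 with low Xist (46.3% of all genes) and 56 to 78 with 1 library left out (47.0% to 54.8%). The median log2 fold change was -0.0076 with low Xist, 0.085 with high Xist and 0.016 to 0.055 with 1 library left out. The log2 ratio of the summed FPKM, 0.031 as reported, was 0.029 as a share of the FPKM of all genes, 0.0081 without crystallins and 0.010 to 0.050 with 1 library left out. The lists had 2 genes with p under 0.05 at a minimum of 5 FPKM, where fewer genes were tested, and 4 to 8 with 1 library left out. The alternatives with Xist and voom were chosen after seeing the data, and the cause was not tested.

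Some log2 fold changes turned sign. With median centring Rpsa had -0.0031. Scaled to the sum without crystallins Rpl11 had -0.016, Rplp2 -0.0076, Rps19 -0.0097, Rps27 -0.016, Rps27a -0.0027 and Rpsa -0.020. Median centring and this scaling move all genes of a library alike, so these turns of sign follow from a shift common to all genes. With quantile normalisation Rpl11 had -0.015, Rplp2 -0.011, Rps19 -0.029, Rps21 -0.0030, Rps27a -0.019 and Rpsa -0.024. Within libraries with low Xist Rplp2 had -0.092, Rps12 -0.039, Rps19 -0.034, Rps21 -0.11, Rps27 -0.057, Rps27a -0.019, Rps27l -0.13 and Rpsa -0.046, and within those with high Xist Rpl36 had 0.052, Rpl36a 0.063, Rpl7l1 0.20, Rplp1 0.013, Rps14 0.039 and Rps29 0.037. With 1 library left out the range was -0.0089 to 0.017 for Rpl11, -0.070 to 0.21 for Rpl23a, -0.047 to 0.0084 for Rpl36, -0.055 to 0.018 for Rpl36a, -0.091 to 0.083 for Rpl7l1, -0.051 to 0.0017 for Rplp1, -0.042 to 0.052 for Rplp2, -0.028 to 0.0078 for Rps14, -0.0053 to 0.042 for Rps19, -0.041 to 0.014 for Rps2, -0.047 to 0.10 for Rps21, -0.018 to 0.056 for Rps27, -0.0077 to 0.036 for Rps27a, -0.10 to 0.079 for Rps29 and -0.026 to 0.035 for Rpsa. None of these had an unadjusted p under 0.05 in the fit as reported. Of 638 values of named members, 536 kept their direction and their side of 0.05.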

Other observations

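Pseudogene rows named for a member were 246, of which 101 were at 0 in every library and 41 had a mean of at least 1 FPKM. They summed to 499.5 FPKM on average, 0.69% of the sum of the members, so few fragments were counted to them. Rpl38-ps2 alone was at 191, 214, 170 and 175 FPKM in Ct and 206, 166, 186 and 238 FPKM in CS, and no other such row had a mean above 30.2 FPKM.

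Of 45 tested pseudogene rows, 5 had an unadjusted p under 0.05 (limma; 4.83% of all genes tested). These were Rps6-ps4 with 8.60 ± 1.0 FPKM in Ct and 11.0 ± 2.1 FPKM in CS, Rps12-ps3 with 6.02 ± 2.1 and 8.19 ± 1.3 FPKM, Rpl27-ps3 with 1.02 ± 0.38 and 1.79 ± 0.40 FPKM, Rpl9-ps3 with 0.53 ± 0.62 and 1.34 ± 0.45 FPKM and Rps19-ps3 with 0.31 ± 0.21 and 1.07 ± 0.82 FPKM (SD, n = 4 each). Rpl9-ps3 and Rps19-ps3 reached the minimum of 1 FPKM through CS alone, the group where they were higher, so that their direction was favoured by the filter. The 5 rows were singled out after their values were seen, none passed after adjustment (adjusted p = 0.956 each), and a fragment from a parent gene and one from its copy can be hard to tell apart.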
